A study of Mus musculus with 4 samples.

Results

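The Wnt ligands, their receptors and the secreted or intracellular modulators of the pathway were followed in RNA-seq libraries of mouse lung. The set was taken from the count table by gene name: every Wnt, Fzd, Sfrp, Dkk and Rspo gene together with Lrp5, Lrp6, Axin2, Lef1, Tcf7, Wif1, Lgr4, Lgr5, Lgr6, Notum and Ctnnb1, which gave 52 of the 43346 genes listed. They comprise 19 ligands, 12 receptors and co-receptors, 7 R-spondins or R-spondin receptors, 10 secreted inhibitors, β-catenin with 2 of its nuclear partners, and the feedback gene Axin2. The transgenic group, with genotype IL-33 over-expression, held libraries B and E (transgenic replicates 1 and 2), and the control group held libraries D and F (control replicates 1 and 2). IL-33 is an alarmin cytokine of the IL-1 family. No source used here gives the promoter of the transgene, the strain, the age or the number of animals per library, and p-values therefore measure only the spread between these libraries. The labels call the material lung epithelial cells and the series title calls it lung tissue.

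Wnt proteins are lipid-modified secreted ligands that bind a Frizzled receptor together with the co-receptor LRP5 or LRP6. In the canonical arm this spares β-catenin from the destruction complex, and β-catenin then acts with TCF and LEF factors on genes such as Axin2. R-spondins strengthen the signal through LGR receptors by removing the ubiquitin ligases that clear Frizzled, whereas SFRP, WIF1, DKK and NOTUM proteins dampen it outside the cell. In the mouse lung Wnt2 and Wnt2b are mesenchymal ligands needed to specify the organ, Wnt7b is an epithelial ligand of lung growth, and Wnt signals from fibroblasts help to maintain alveolar type 2 stem cells.

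The gene counts summed to between 76120696 and 87723745 per library. In counts per 1000000 (CPM), scaled by TMM, Il33 reached 1723 in B and 874 in E against 117 in D and 108 in F, in the direction of the labels. Markers of several lineages were present: 0 of the genes in the 10 marker lists lacked counts in any library, and the 8 endothelial markers summed to between 4580 and 8140 CPM, which goes against a pure epithelial preparation. Libraries B and D lay apart from E and F. The 6 pan-epithelial markers summed to 1680 CPM in B and 1400 in D against 1120 in E and 1110 in F, and the 8 fibroblast markers to 950 CPM in B and 1610 in D against 2240 in E and 2600 in F. The summed CPM of 4 Y-linked genes (Eif2s3y, Kdm5d, Uty and Ddx3y), taken against that of control library D, came to 47.5% in control F but 9.0% in transgenic E and 0.554% in transgenic B. Xist, the RNA of the inactive X chromosome of female cells, had 698 CPM in B and 811 in E against 1.19 in D and 356 in F. Libraries E and F thus held both Y-linked and Xist RNA, and the sex makeup of the libraries is confounded in part with genotype.

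No Wnt gene passed the test between the genotypes. Of the 52 members, 46 had enough counts to be tested, and edgeR's quasi-likelihood test over 20872 genes called 0 of them in either direction at the 0.05 level (smallest adjusted p = 1), where 0% of all genes tested were called. Il33 itself was not called by edgeR either, with a log2 fold change of 3.53 (SE 0.37). A missing call therefore does not show that a gene was unchanged. DESeq2 called 1 gene higher (0.00479%), which was no Wnt member, and limma-voom called 0%. At an unadjusted p under 0.05 edgeR counted 0 members, against 0.896% of all genes on the higher and 0.393% on the lower side. Of the 46 members 14 had a log2 fold change above 0 and 32 below it, with a median of -0.11, against 49.6% of all genes above 0, 50.4% below it and a median of -0.0013. That tilt rested on library B or F: without B 23 members lay above 0 (median -0.011), and without F 24 did (median 0.034). The groups did not overlap for 6 members: the transgenic pair was the higher for 1 (2.17%, against 11.9% of all genes) and the lower for 5 (10.9%, against 12.0%).

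**Figure D1:**
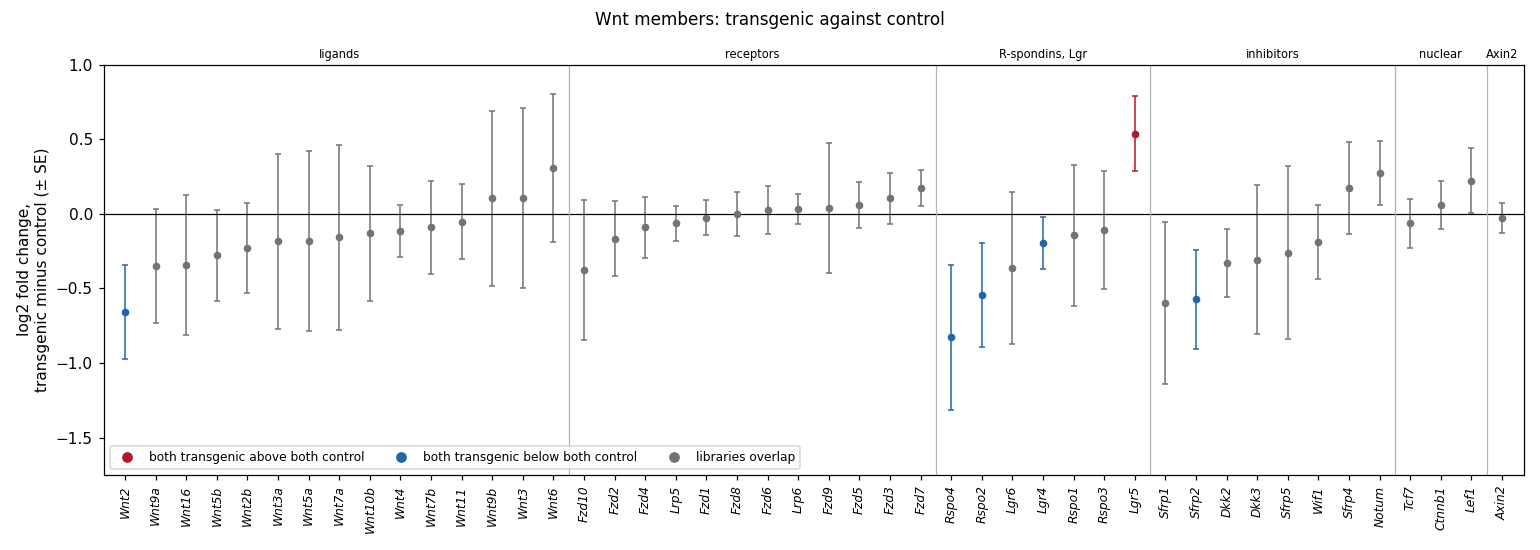
Log2 fold change of transgenic against control libraries for the 46 tested members, grouped by role, with bars for the standard error (2 libraries per group, edgeR). Points in red or blue are members whose transgenic libraries both lay above (1 member) or both below (5 members) the controls; the values run from -0.83 for Rspo4 to 0.54 for Lgr5.

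The ligands were expressed at modest levels, and Wnt7b and Wnt11 led them. Per kilobase of gene model, the 19 ligands summed to 22.2 CPM in B and 21.4 in E against 26.5 in D and 22.3 in F, so the total differed little between libraries although its makeup did. The mean over the 4 libraries was 4.77 ± 1.27 CPM per kilobase (SD) for Wnt7b and 4.60 ± 0.944 for Wnt11, a ligand that mostly signals without β-catenin. These did not differ beyond their spread, and Wnt5a (2.32 ± 1.17), another ligand of the β-catenin-independent arm, followed with Wnt7a (2.07 ± 1.08), Wnt4 (1.86 ± 0.189), Wnt3a (1.84 ± 0.914), Wnt10b (1.64 ± 0.613), Wnt2 (1.50 ± 0.519) and Wnt9a (1.13 ± 0.345). From Wnt5a to Wnt9a each mean differed from the next in this order by less than the larger SD of the pair. The remaining tested ligands Wnt2b, Wnt3, Wnt5b, Wnt6, Wnt9b and Wnt16 averaged between 0.0484 and 0.596 CPM per kilobase. Wnt8a and Wnt10a had 0 counts in every library, which allows up to 0.0397 CPM in B, the shallowest library, while Wnt1 had 2 reads, all in D, and Wnt8b 5, all in F.

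**Figure D2:**
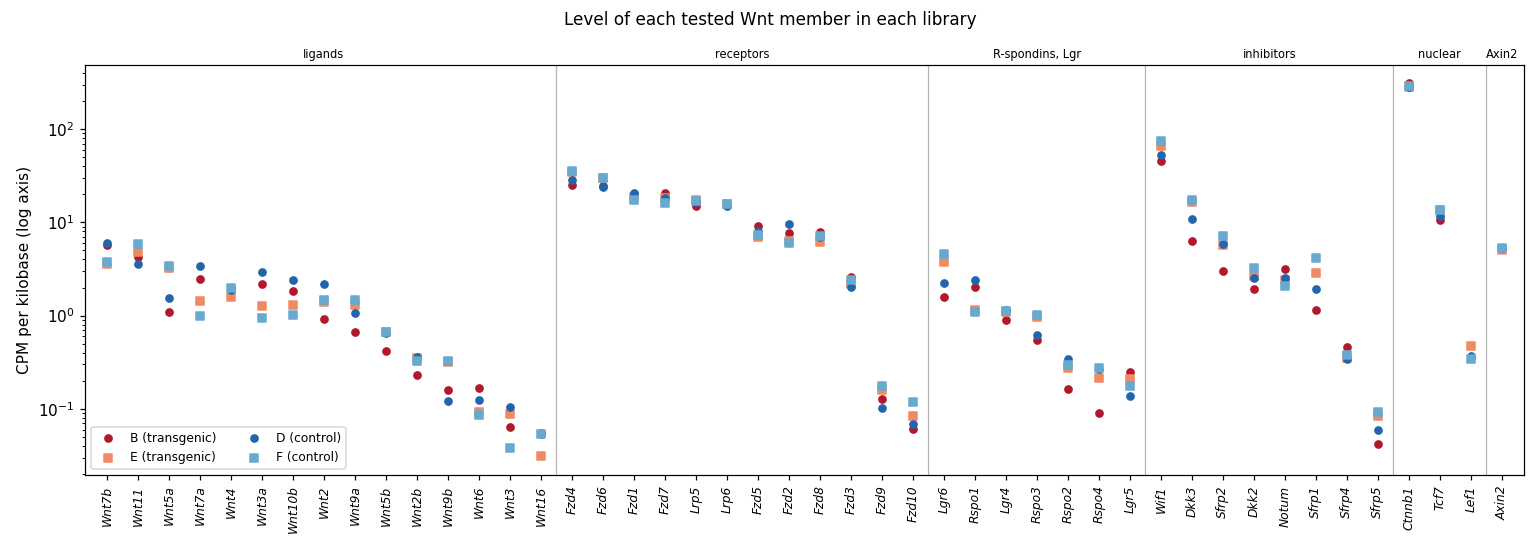
Level of the 46 tested members in each library, in CPM per kilobase on a log axis, grouped by role and ordered by the mean within each group. Ctnnb1, with a mean of 290.5 CPM per kilobase, stands above all other members; the receptors lie close together across libraries, while Wnt5a, Wnt7a, Wnt3a and Sfrp1 spread widely.

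Wnt2 showed the lowest fold change among the ligands. Wnt2 (ENSMUSG00000010797, chromosome 6, 17988940 to 18030585, GRCm38) stood at 2.09 CPM in B and 3.14 in E against 4.93 in D and 3.35 in F. Both transgenic libraries lay below both controls, but E and F were close together and the distance came from B and D. The log2 fold change was -0.66 (SE 0.31), and the gene missed the threshold (edgeR adjusted p = 1). It ranged from -0.99 to -0.35 with 1 library left out, and turned to 0.19 (SE 0.66) when the Y-linked share was a covariate. The summed fibroblast markers, 950 and 2240 CPM in the transgenic and 1610 and 2600 CPM in the control libraries, were also lowest in B, and their part in this difference was not tested. In bulk RNA, fewer cells of a type and less RNA per cell cannot be told apart.

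The promoter of Wnt2 is printed because it was the ligand with the lowest fold change. It was also the only tested member of those matched whose window held TTTGAA. This is part of the longer TCF/LEF motif CTTTGAA, which the Wnt2 window lacked. The promoters of Wnt3a and Wnt9a are printed because these genes lie next to each other on chromosome 11 and differed in library order, as described below. RefSeq promoter windows (GRCm38.p6, 250 bases before the annotated start to 50 from it) were found for 34 of the 52 members. Capitals mark the annotated RefSeq start and the motif TTTGAA. For Wnt2, on the minus strand, the gene span of the count table begins further upstream, at 18030585. The marked start and motif of Wnt2 thus lie inside that span.
Wnt2, chr6:18030396-18030695, minus strand: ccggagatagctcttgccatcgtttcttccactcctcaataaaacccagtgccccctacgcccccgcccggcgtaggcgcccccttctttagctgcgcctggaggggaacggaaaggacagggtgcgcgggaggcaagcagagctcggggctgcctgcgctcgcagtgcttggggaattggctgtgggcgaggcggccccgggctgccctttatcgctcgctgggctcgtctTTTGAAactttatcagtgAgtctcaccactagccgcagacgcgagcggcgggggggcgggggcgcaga
Wnt3a, chr11:59290702-59291001, minus strand: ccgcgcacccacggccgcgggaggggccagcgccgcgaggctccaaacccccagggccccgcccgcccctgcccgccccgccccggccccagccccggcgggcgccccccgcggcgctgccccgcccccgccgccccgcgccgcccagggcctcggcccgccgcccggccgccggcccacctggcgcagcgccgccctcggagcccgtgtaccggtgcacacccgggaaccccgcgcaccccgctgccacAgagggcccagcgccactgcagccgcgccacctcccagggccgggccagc
Wnt9a, chr11:59306680-59306979, plus strand: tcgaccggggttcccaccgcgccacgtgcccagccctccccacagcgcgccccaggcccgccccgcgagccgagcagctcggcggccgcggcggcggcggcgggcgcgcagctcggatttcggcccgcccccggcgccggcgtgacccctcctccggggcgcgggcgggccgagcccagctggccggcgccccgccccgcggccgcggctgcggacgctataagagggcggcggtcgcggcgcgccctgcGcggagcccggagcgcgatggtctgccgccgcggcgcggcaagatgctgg

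The motif TTTGAA, searched on both strands as TTTGAA or TTCAAA, was in 2 of the 42 windows of members (4.76%), those of Wnt2 and the untested Dkk1, and in 17.9% of all 32851 promoter windows. The longer form CTTTGAA, which contains it, was in 1 member window (Dkk1) and in 5.14% of all windows. The members' windows were rich in G and C, with a median of 67.5% against 52.7% over all windows, and the Wnt3a and Wnt9a windows reached 86.3% and 83.3%.

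Wnt7a, Wnt3a, Wnt10b and Wnt7b were all higher in D and B than in E and F, with D the highest. Wnt7a stood at 7.90 CPM in B and 4.51 in E against 10.7 in D and 3.11 in F. Wnt3a, the ligand most used to activate β-catenin in culture, stood at 6.0 CPM in B and 3.50 in E against 8.18 in D and 2.59 in F. Each genotype had 1 high and 1 low library, and the control values enclosed the transgenic ones for both ligands. Wnt10b, a canonical ligand, stood at 4.32 CPM in B and 3.0 in E against 5.61 in D and 2.40 in F, and Wnt7b at 24.95 and 15.8 against 26.7 and 16.7. Their log2 fold changes were small beside their errors, at -0.16 (SE 0.62) for Wnt7a, -0.18 (SE 0.59) for Wnt3a, -0.13 (SE 0.45) for Wnt10b and -0.09 (SE 0.31) for Wnt7b. When the Y-linked share was a covariate all of them turned above 0, to 2.26 (SE 0.93), 2.04 (SE 0.92), 1.48 (SE 0.78) and 0.69 (SE 0.61). That share was lower in both transgenic libraries than in either control, so this fit parts it from genotype poorly. The first 3 ran in the order D, B, E and F, while Wnt7b was lowest in E. The summed markers of alveolar type 1 cells had the order of the first 3, at 3390 CPM in D, 3340 in B, 2270 in E and 2080 in F. Of these 8 markers, 6 were highest in D and 6 lowest in F. The summed mesothelial markers had the same order, at 306, 269, 150 and 139 CPM. Their part in these ligands was not tested.

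Wnt5a and Wnt9a ran the other way. Wnt5a stood at 8.62 CPM in B and 25.5 in E against 12.1 in D and 26.5 in F, so E and F were nearly level and B and D well below them. The group means were 17.0 ± 11.9 and 19.3 ± 10.2 CPM (SD, n = 2 each), a difference far inside the spread within each group (log2 fold change -0.18, SE 0.60). Wnt9a stood at 2.21 CPM in B and 4.37 in E against 3.56 in D and 4.84 in F (a log2 fold change of -0.35, SE 0.38). It lies 16.2 kb from Wnt3a on chromosome 11 (59306928 to 59333552, against 59248033 to 59290752 for Wnt3a). Wnt3a was highest in D and lowest in F, whereas Wnt9a was highest in F and lowest in B. Wnt11 stood at 15.3 CPM in B and 17.5 in E against 13.0 in D and 21.1 in F (a log2 fold change of -0.05, SE 0.25), with the transgenic values inside the control range.

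The receptors and co-receptors varied little between libraries. All 12 were tested, 6 had a log2 fold change above 0 and 6 below it, and the values ran from -0.37 (Fzd10) to 0.17 (Fzd7). For 0 of the 12 did the highest library reach 2 times the lowest, and their median ratio of highest to lowest library was 1.28, against 1.33 over all genes tested. Fzd4, which also serves as the receptor of norrin in blood vessels, led per length at 31.0 ± 5.06 CPM per kilobase (SD over 4 libraries). It was followed by Fzd6, a Frizzled of planar polarity, at 27.2 ± 3.26, and by Fzd1 (18.9 ± 1.27), Fzd7 (18.4 ± 1.81), Lrp5 (16.45 ± 1.03) and Lrp6 (15.5 ± 0.49). Fzd4 lay above Fzd6 in every library, narrowly in B (25.0 against 24.67 CPM per kilobase), and their means differed by less than the larger SD. Fzd1 and Fzd7 did not differ beyond their spread, nor did Lrp5 and Lrp6. Fzd5, Fzd2, Fzd8 and Fzd3 averaged 7.89, 7.44, 7.04 and 2.32 CPM per kilobase, and Fzd9 and Fzd10 only 0.14 and 0.083.

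Fzd7 had the smallest p of the receptors. It stood at 93.5 CPM in B and 82.8 in E against 83.2 in D and 73.4 in F, so that E and D were level and the groups overlapped. Its log2 fold change was 0.17 (SE 0.12, edgeR adjusted p = 1), and it stayed between 0.08 and 0.26 with any 1 library left out. Fzd4 stood at 92.1 CPM in B and 129.5 in E against 105.9 in D and 130.1 in F, and Fzd6 at 102 and 124.8 against 99.6 and 123.3. For both, E and F were the high libraries. The co-receptors hardly varied: Lrp5 stood at 145.8 CPM in B and 167.4 in E against 161 in D and 166.7 in F, and Lrp6 at 152.4 and 156.4 against 145.9 and 155.8. Fzd1 stood at 77.5 and 78.6 CPM in B and E, between the 85.8 in D and 73.0 in F.

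The R-spondins and their receptors held 4 of the 6 members whose groups did not overlap, none of which passed the test. Of the 7 genes, the transgenic pair was the higher for 1 (14.3%, against 11.9% of all genes) and the lower for 3 (42.9%, against 12.0%). Lgr5, the R-spondin receptor known as a marker of intestinal stem cells, was the only member with both transgenic libraries above both controls. It had the smallest p of all members (0.0847 unadjusted in edgeR, adjusted p = 1). Lgr5 (ENSMUSG00000020140, chromosome 10, 115450311 to 115587780) stood at 2.54 CPM in B and 2.12 in E against 1.41 in D and 1.80 in F. The group means were 2.33 ± 0.297 and 1.60 ± 0.27 CPM (SD, n = 2 each), with a log2 fold change of 0.54 (SE 0.25) that ran from 0.38 to 0.72 with 1 library left out and fell to 0.05 (SE 0.69) when the Y-linked share was a covariate. It was scarce, at 0.192 ± 0.0467 CPM per kilobase over the 4 libraries, and E and F differed by less than D and F did.

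Rspo2 and Rspo4 lay lower in the transgenic group, with library B the lowest for both. Rspo4 stood at 0.212 CPM in B and 0.508 in E against 0.633 in D and 0.657 in F, from counts of 16, 45, 51 and 56 reads. Rspo2 stood at 0.543 CPM in B and 0.903 in E against 1.14 in D and 0.974 in F, from 41, 80, 92 and 83 reads. The log2 fold changes were -0.83 (SE 0.49) and -0.54 (SE 0.35), both past no threshold (edgeR adjusted p = 1). Without library B they were -0.34 and -0.23, and without library E -1.61 and -0.97 (edgeR adjusted p = 0.353 and 0.415). When the Y-linked share was a covariate the values were -0.69 (SE 1.16) for Rspo4 and -0.11 (SE 0.91) for Rspo2. Lgr4, the widely expressed R-spondin receptor, stood at 5.28 CPM in B and 6.38 in E against 6.74 in D and 6.61 in F (a log2 fold change of -0.19, SE 0.18). Without B the values of E, D and F were close, and the log2 fold change was -0.065, while without E it was -0.35. With the covariate it was -0.10 (SE 0.51).

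Lgr6 and Rspo1 were the most abundant of this class per length and followed the opposite library orders. Lgr6, known in the mouse lung from airway smooth muscle, averaged 3.03 ± 1.36 CPM per kilobase and stood at 10.8 CPM in B and 25.5 in E against 15.4 in D and 31.3 in F. Rspo1 averaged 1.67 ± 0.649 CPM per kilobase and stood at 3.92 CPM in B and 2.23 in E against 4.67 in D and 2.12 in F, high in B and D like Wnt7a. The groups overlapped for both, with log2 fold changes of -0.36 (SE 0.51) and -0.14 (SE 0.47). The 8 smooth muscle and pericyte markers summed to 1670 CPM in F, 1450 in E, 1040 in D and 833 in B, the order of Lgr6, and their part in its level was not tested.

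The secreted inhibitors were led by Wif1 and were lower in library B than elsewhere for 6 of the 8 tested. Per length the 10 genes summed to 109 CPM in F, 96.9 in E, 76.9 in D and 61.4 in B. Wif1, which binds Wnt proteins directly, made up most of this at 59.6 ± 12.9 CPM per kilobase, ahead of Dkk3 at 12.85 ± 5.31 and Sfrp2 at 5.44 ± 1.74. Dkk3 is a divergent member of a family whose other proteins block LRP5 and LRP6. Dkk2, Notum and Sfrp1 followed at 2.59, 2.53 and 2.52 CPM per kilobase, Sfrp4 and Sfrp5 were scarce, Dkk1 had 4 to 10 reads per library, and Dkk4 had 0 in all of them.

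Sfrp2 was the inhibitor whose groups did not overlap. Sfrp2 (ENSMUSG00000027996, chromosome 3, 83766321 to 83774316), a soluble decoy with a Frizzled-like domain made by fibroblasts, stood at 6.43 CPM in B and 12.4 in E against 12.8 in D and 15.3 in F. The transgenic library E lay just under control library D. The log2 fold change was -0.57 (SE 0.33, edgeR adjusted p = 1), -0.18 without library B and -1.13 without library E. An antisense gene, Gm26771, covers 16.1% of the exon sequence of Sfrp2 and had 75 reads in B and 219 in E against 224 in D and 259 in F. No source used here gives the strand setting of the counting, and the 2 genes may share reads. The same limit holds for Notum, given below, and for other members with a gene on the opposite strand over part of their exons. These are Fzd5 (17.8%), Ctnnb1 (14.6%), Wnt11 (8.8%), Wnt7b (6.61%), Wnt5a (4.58%) and Axin2 (3.8%).

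Wif1, Dkk3, Dkk2 and Sfrp1 had the same order of libraries at the ends, lowest in B and highest in F. Wif1 stood at 110.1 CPM in B and 160.2 in E against 128 in D and 180 in F (a log2 fold change of -0.19, SE 0.25). Dkk3 stood at 21.1 CPM in B and 56.0 in E against 36.4 in D and 59.1 in F (-0.31, SE 0.50), and Sfrp1 at 5.07 and 12.5 against 8.50 and 18.1 (-0.60, SE 0.54). These 4 inhibitors were grouped as lowest in B and highest in F, so B below D and E below F follow from the grouping. Dkk2, an LRP5 and LRP6 antagonist, stood at 7.13 CPM in B and 9.84 in E against 9.32 in D and 12.0 in F (-0.33, SE 0.23). An edgeR fit with a term setting B and D apart from E and F, a split that no label gives, had 6 of the 46 members at an unadjusted p under 0.05. Over all genes tested it had 1281 of 20872 (6.14%). That fit called 0 (adjusted p = 0.733 for Sfrp1 and 0.799 for Wif1 and Dkk2). Notum, the enzyme that strips the lipid from Wnt proteins, ran the other way at 7.55 CPM in B and 5.77 in E against 6.03 in D and 4.98 in F (0.27, SE 0.22). The antisense gene Notumos covers 29.4% of its exon sequence.

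β-catenin RNA and its feedback gene Axin2 were level across the libraries. Ctnnb1, which encodes β-catenin and also serves adherens junctions, was by far the highest member at 290.5 ± 13.5 CPM per kilobase. It stood at 1581 CPM in B and 1440 in E against 1430 in D and 1474 in F, a log2 fold change of 0.06 (SE 0.16). Axin2, a common readout of canonical signalling, stood at 29.5 CPM in B and 27.9 in E against 29.2 in D and 29.4 in F. Its ratio of highest to lowest library, 1.06, compares with a median of 1.33 over all genes tested, and its log2 fold change was -0.028 (SE 0.099).

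Tcf7 and Lef1, transcription factors that partner β-catenin and are also high in T cells, did not separate the groups. Tcf7 stood at 27.6 CPM in B and 35.8 in E against 30.6 in D and 35.6 in F (a log2 fold change of -0.06, SE 0.17), and Lef1 at 3.15 and 4.04 against 3.19 and 2.98 (0.22, SE 0.22). The 8 T cell markers summed to 8.64 CPM in each of the transgenic libraries against 4.37 in D and 5.13 in F, with 5 of the 8 higher in both transgenic libraries (62.5%, against 11.9% of all genes), and none was at 0 in all libraries. Their part in the levels of Tcf7 and Lef1 was not tested.

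Other genes of the pathway gave the same count of calls. Of 63 further genes in 7 lists, all tested, edgeR called 0 higher and 0 lower, 29 had a log2 fold change above 0 and 34 below it, and the median was -0.03. Of these, 9 lay higher in both transgenic libraries (14.3%, against 11.9% of all genes) and 7 lower (11.1%, against 12.0%). Among the other receptors and the genes of receptor turnover, Ror1, a co-receptor of Wnt5a, stood at 40.7 CPM in B and 36.6 in E against 32.6 in D and 32.1 in F (a log2 fold change of 0.26, SE 0.11), and Znrf3, the ubiquitin ligase that clears Frizzled, at 38.9 and 34.65 against 32.9 and 30.9 (0.20, SE 0.11). Both were separated without passing the test (edgeR adjusted p = 1).

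The cytoplasmic relay and destruction complex held a few separated genes in each direction, none of them past the test. Of its 19 genes, 4 lay higher in both transgenic libraries (21.1%, against 11.9% of all genes) and 3 lower (15.8%, against 12.0%). Of the 19, 10 had a log2 fold change above 0 and 9 below (median 0.0091), and the smallest p values were those of the Dishevelled gene Dvl3 (0.15, SE 0.10) and the β-catenin ubiquitin ligase gene Btrc (-0.18, SE 0.12). The 11 nuclear partners, of which 1 (9.09%) lay higher in both transgenic libraries, had a median of 0.04, with Pygo1 at 0.14 (SE 0.11) and the co-repressor gene Tle2 at 0.23 (SE 0.25). The 9 planar polarity genes, also with 1 such gene (11.1%), had a median of -0.04, with Celsr3 at 0.51 (SE 0.32) and Celsr1 at 0.19 (SE 0.15). Of 8 common targets, 2 lay higher in both transgenic libraries (25.0%, against 11.9% of all genes) and 1 lower (12.5%, against 12.0%). Of these targets 4 had a log2 fold change above 0, led by Cd44 at 181 CPM in B and 191 in E against 141 in D and 164 in F (0.28, SE 0.12), a gene that leukocytes also express. The 8 leukocyte, B cell and macrophage markers summed to 39.8 CPM in B and 65.0 in E against 20 in D and 37.7 in F, all 8 with a log2 fold change above 0. Only 3 of these 8 were higher in both transgenic libraries (37.5%, against 11.9% of all genes). The part of these markers in the level of Cd44 was not tested. For secretion, Porcn, which adds the lipid to Wnt proteins, and the carrier gene Wls had values of 0.19 (SE 0.20) and 0.08 (SE 0.14). All 6 further extracellular inhibitors had a log2 fold change below 0 (median -0.64), and all 6 were lowest in B and highest in F. For 2 of them both transgenic libraries lay below the controls (33.3%, against 12.0% of all genes). The leading ones were scarce, with Sostdc1, an antagonist of BMP and Wnt signals, at 0.185 CPM in B and 0.372 in E against 0.447 in D and 0.552 in F, and Draxin at 0.0265 and 0.282 against 0.285 and 0.681. Draxin had 2 reads in B and 25 in E against 23 in D and 58 in F, so E and D were nearly level.

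Several members ranged widely between the 4 libraries. For 16 of the 46 (34.8%) the highest library was at least 2 times the lowest, against 16.9% of all genes tested. The 16 comprised 8 ligands, 4 of the R-spondin class and 4 inhibitors. Of the 16, 8 were highest in F and lowest in B, namely Wnt5a, Wnt9a, Lgr6, Rspo4, Dkk3, Sfrp1, Sfrp2 and Sfrp5, and 5 were highest in D and lowest in F, namely Wnt3, Wnt3a, Wnt7a, Wnt10b and Rspo1. Some of these ranges rested on few reads per library, 6 to 15 for Sfrp5, 10 to 26 for Wnt3 and 16 to 56 for Rspo4. The median level was 7.18 CPM for the tested members and 10.9 for all genes tested. Over all 46 tested members, library B was the lowest for 20 (43.5%, against 33.9% of all genes) and F the highest for 18 (39.1%, against 25.7%).

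**Figure D3:**
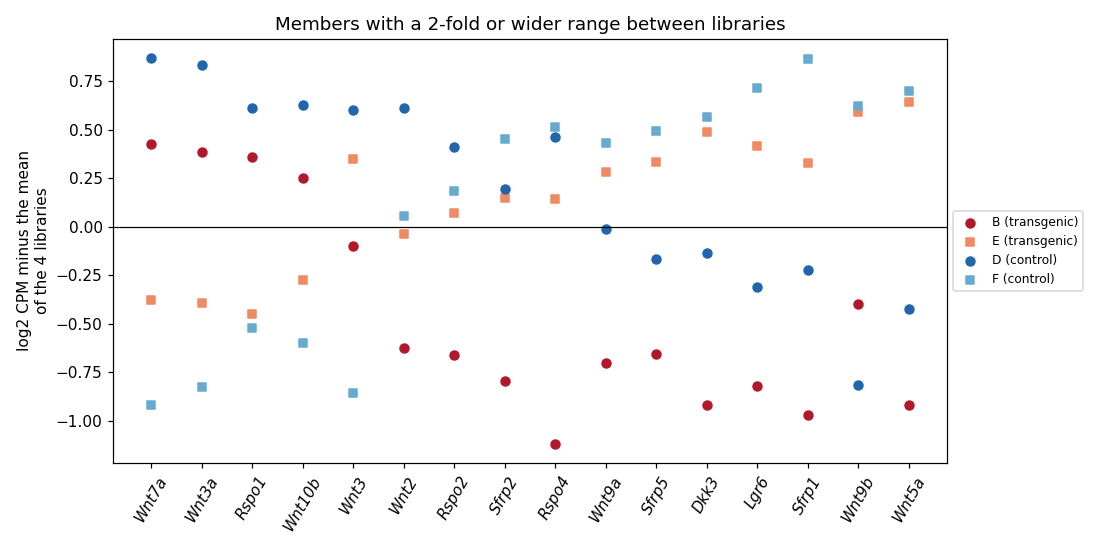
The 16 members whose highest library was at least 2 times the lowest; each point is 1 library, as log2 CPM minus the mean of the 4 libraries for that gene. Wnt7a, Wnt3a, Rspo1 and Wnt10b, at the left, are high in D and B and low in E and F, while Sfrp1, Wnt9b, Wnt5a, Lgr6 and Dkk3, at the right, are high in E and F.

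Several marker lists had these orders of libraries too. All 8 fibroblast, all 8 smooth muscle and all 8 endothelial markers were lowest in B, and the endothelial sums ran from 4580 CPM in B over 5830 in D and 7380 in E to 8140 in F. This is the order of Wif1, Dkk3, Sfrp1, Lgr6 and Wnt5a. All 8 alveolar type 2 markers were highest in B, with sums of 34500 CPM in F, 37900 in E, 47700 in D and 57900 in B. The type 1 and mesothelial sums, highest in D, then B, E and F, had the order of Wnt7a, Wnt3a, Wnt10b and Rspo1. For all of these lists the range of the transgenic libraries overlapped that of the controls. The T cell sums and the leukocyte, B cell and macrophage sums, given above, had neither order and lay higher in both transgenic libraries than in either control. For the leukocyte list this was narrow, at 39.8 CPM in B against 37.7 in F, and 3 of its 8 markers separated the groups. The part of these lists in the members' levels was not tested.

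**Figure D4:**
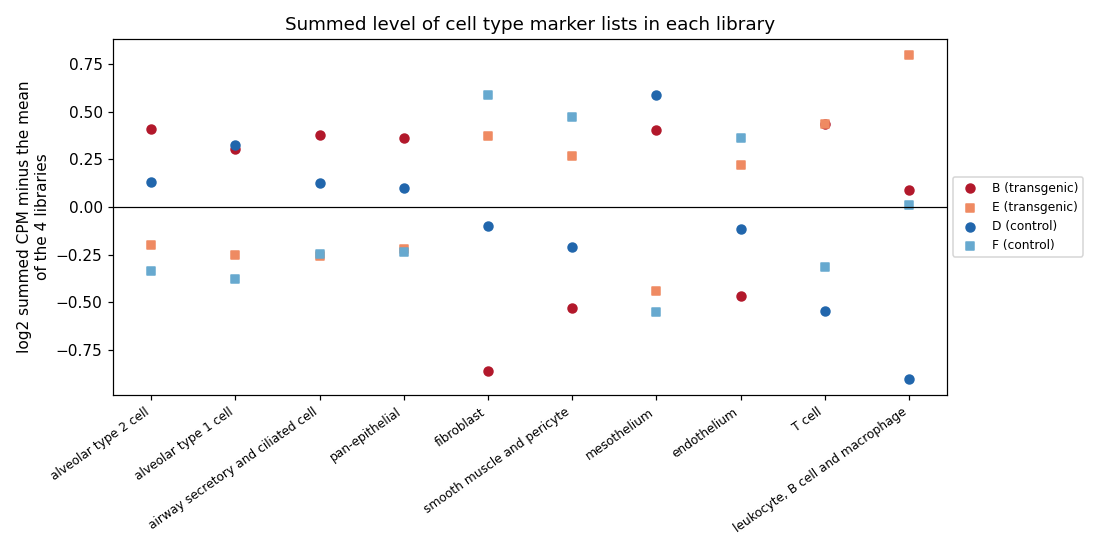
Summed CPM of 10 lists of cell type markers in each library, as log2 minus the mean of the 4 libraries. Sums of the epithelial and mesothelial lists are high in B and D, and those of the fibroblast, smooth muscle and endothelial lists in E and F. Of the 8 airway markers, 4 are highest in B, 1 in D and 3 in F, and 4 are lowest in D. The T cell sum (8.64 CPM in both transgenic libraries) and the leukocyte sum (39.8 CPM in B and 65.0 in E) are above the controls, the latter narrowly in B (37.7 CPM in F).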

How the data were processed

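Per the labels' protocols, a Qiagen RNeasy kit was used and polyadenylated RNA was sequenced. The submitters' processing notes name TopHat2 (version 2), Bowtie (version 1), featureCounts (version 1) and the builds mm10 and GRCm38. The authors deposited raw read counts per gene and, beside them, RPKM values; the gene counts made up 80.3% to 82.7% of the totals behind the deposited RPKM values, which were used for nothing else. No source used here gives the annotation release or the strand setting. Gene model lengths were the table's own, and only 38.1% were multiples of 3, so they hold more than coding sequence.

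Members were taken by the table's gene name, other symbols by identifier from GENCODE M21 (42462 of 43346 matched). filterByExpr, at a minimum count of 10 and a minimum total of 15, left 20872 genes, which were scaled by TMM. Genotypes, with 2 libraries each, were compared without covariates by the quasi-likelihood test of edgeR 4.0.16 (legacy setting, R 4.3.3), and p-values were adjusted by Benjamini-Hochberg over all genes. SE is the log2 fold change over the square root of F. CPM uses TMM-scaled library sizes, and CPM per kilobase divides it by the gene model length. The limit for a count of 0 is 3 counts and covers counting error only. The fit was tested on simulated counts with a fixed dispersion and no split between libraries. That test does not show how the fit performs where B and D lie apart from E and F. Exon overlaps came from GENCODE M21.

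The members and lists were chosen with earlier results of these data known, as was the term setting B and D apart from E and F. Values per library are given for members whose groups did not overlap, the 8 with the smallest p and the 3 highest per length in each class. Wnt3a, Wnt7a, Wnt9a, Wnt10b, Sfrp1, Lrp5 and Lrp6 were added after their values were seen. Alternatives used DESeq2 1.42.0 and limma 3.58.1.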

Additional observations from a re-analysis of the deposited data

How the results depend on the processing

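Depth was at least 76120696 counts in every library, with 2 libraries per group. Rspo4 and Rspo2 rested on 16 to 92 reads per library, and the scarcest ligands on 0 to 5 in all, so counting error adds to their values. The count of Wnt members called was 0 under all 13 alternatives: DESeq2 or upper-quartile factors, no filter, a stricter filter (1 CPM in 2 libraries and a total of 20), DESeq2, limma-voom, the fit without its legacy setting, each library left out, the term setting B and D apart from E and F, and the Y-linked share as a covariate. Over all genes DESeq2 called 1, and with 1 library left out edgeR called 0 to 15, the most without E. With 1 library left out 16 to 24 members lay above 0, and their median ran from -0.16 to 0.034. With the term setting B and D apart from E and F, 6 of 46 members had an unadjusted p under 0.05 in edgeR (smallest adjusted p = 0.733, Sfrp1). Over all genes tested 1281 of 20872 did (6.14%).

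Of 30 members followed singly, 9 kept the sign of their log2 fold change throughout. With 1 library left out it changed sign for 20, with ranges of -1.12 to 0.24 for Lgr6, -0.60 to 0.53 for Rspo1, -0.011 to 0.11 for Ctnnb1, -0.27 to 0.11 for Tcf7, -0.067 to 0.0018 for Axin2, -0.62 to 0.61 for Wnt10b, -0.36 to 0.34 for Wnt11, -0.79 to 0.87 for Wnt3a, -1.17 to 0.49 for Wnt5a, -0.79 to 1.0 for Wnt7a, -0.46 to 0.29 for Wnt7b, -0.93 to 0.058 for Wnt9a, -0.14 to 0.097 for Fzd1, -0.37 to 0.14 for Fzd4, -0.14 to 0.19 for Fzd6, -0.18 to 0.033 for Lrp5, -0.012 to 0.082 for Lrp6, -1.18 to 0.23 for Dkk3, -1.40 to 0.047 for Sfrp1 and -0.49 to 0.078 for Wif1. When the Y-linked share was a covariate it changed sign for Rspo1 (1.28), Ctnnb1 (-0.027), Wnt10b (1.48), Wnt2 (0.19), Wnt3a (2.04), Wnt7a (2.26), Wnt7b (0.69), Fzd1 (0.28), Fzd6 (-0.30) and Lrp6 (-0.079). With that covariate it moved further below 0 for others, among them Sfrp1 (-1.63), Lgr6 (-1.33), Dkk3 (-0.88), Sfrp2 (-0.71) and Wif1 (-0.68). Wnt7a also changed sign with limma-voom (0.044) and with the term setting B and D apart from E and F (0.029). In all of these fits the adjusted p missed the threshold, and the cause was not tested.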
